A study of Rattus norvegicus with 8 samples.

Results

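Collagen and laminin genes, which encode the structural proteins of the extracellular matrix, were followed in the rat across 4 states that lead from pluripotent stem cells to cells resembling primordial germ cells. Members were all named rows of the expression table whose symbol has the form of a collagen chain (Col, number, a, number) or a laminin chain (Lama, Lamb or Lamc and a digit), 55 of 22228 genes. There were 44 collagen genes and 11 laminin genes. Every cell was of the rat strain Crlj:WI and labelled wild type, although both germ cell-like groups carried a tdTomato reporter inserted at Nanos3. Embryonic stem cells (ESC) were kept over a layer of mouse embryonic fibroblasts with PD0325901 (1 µM, a MEK inhibitor), CHIR99021 (3 µM, a GSK3 inhibitor) and rat LIF. Epiblast-like cells (EpiLC) came from those ESC after 60 h as floating aggregates, given bFGF at 12 ng/ml together with activin A at 20 ng/ml. The group PGCLC_d3 was sorted by FACS for the reporter after the aggregates had spent 3 days in BMP4 (500 ng/ml), LIF, SCF and EGF. The group PGCLC_d3ag3 was sorted for the same reporter after 5000 such cells had been cultured for 3 more days with 50000 somatic cells of female E15.5 rat gonads, which had been cleared of c-KIT-positive germ cells. Each group had 2 libraries.

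Basement membranes are thin sheets on which epithelia and early embryonic tissues rest. Laminins, trimers of an alpha, a beta and a gamma chain, polymerise at the cell surface, and a network of type IV collagen, linked to the laminins through nidogen, stabilises the sheet. Fibrillar collagens (types I, III and V) instead form the cables of connective tissue and are made mainly by fibroblasts and other stromal cells. In the rodent embryo, laminin trimers with the alpha1 or alpha5 chain are the forms that pluripotent epiblast cells meet, and migrating germ cells later cross laminin-containing matrix on their way to the gonads.

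Expression was deposited as log2(TPM+1), where TPM is a transcript level scaled for gene length and library size, so that genes can be compared. Levels are given below as TPM per library. Every change is a difference on the log2(TPM+1) scale, where the added 1 shrinks the change of a low gene. TPM keeps no read totals, so the depth of the libraries is unknown and their number limits the precision. Whether the 2 replicates of a group were separate cultures is not labelled. The p-values set a group difference against the spread between libraries of the same group, which may be only technical. Replicates of a group correlated at Pearson r of 0.995 to 0.998 across tested genes. Marker genes were highest in the groups they mark: Nanog was at 933 and 912 TPM in ESC and Otx2 at 74.6 and 73.9 in EpiLC. Prdm1 was at 67.6 and 65.4 in PGCLC_d3 and at 22.2 and 23.4 in PGCLC_d3ag3. Nanog was not exclusive to ESC, at 148 and 169 TPM in PGCLC_d3 and 142 and 157 in PGCLC_d3ag3. Otx2 was at or below 8.20 TPM outside EpiLC, and Prdm1 at or below 0.266 TPM in ESC and EpiLC. The EpiLC marker Pou3f1 was at 210 and 218 TPM in EpiLC and 26.9 and 26.7 in PGCLC_d3.

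Few of the 55 genes were expressed at an appreciable level. Between 9 and 18 of them reached 1 TPM in a library, with 14 and 12 in ESC, 16 and 17 in EpiLC, 18 and 18 in PGCLC_d3, and 9 and 11 in PGCLC_d3ag3. At least 1 TPM in at least 2 libraries, the condition for testing, was met by 23 members: 4 of 6 fibrillar genes (Col1, Col3 and Col5), 1 of 5 other fibril-forming genes (Col2a1), 10 of 20 basement membrane genes and 8 of 24 other collagens. The 32 members that were not tested reached at most 1.75 TPM in any library, and that value belonged to Col4a3. A gene that passed this condition through 1 high group had to differ between groups, so counts among the tested members describe those genes and not the family.

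**Figure D1:**
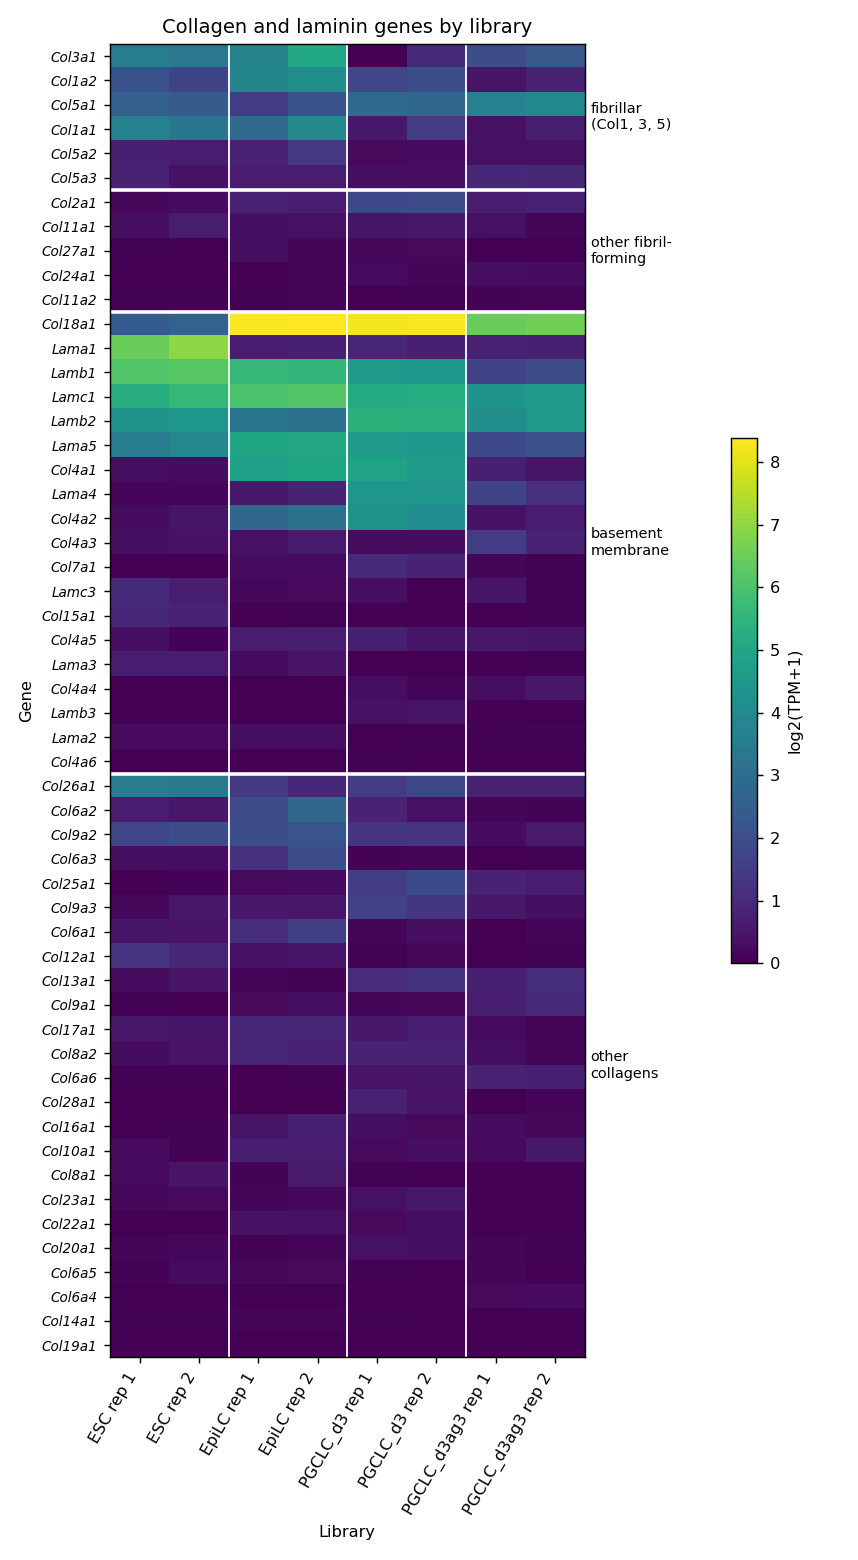
Level of 54 collagen and laminin genes (rows, by class) in each of the 8 libraries (columns), as log2(TPM+1) from dark (0) to bright. Col18a1 is brightest in EpiLC and PGCLC_d3, Lama1 is bright only in the ESC columns, and most rows stay dark in every library.

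From ESC to EpiLC, 13 of the 23 tested members rose, 5 fell and 5 did not pass (limma with Benjamini-Hochberg adjustment over 13571 genes). Of all tested genes, 67.3% changed, 35.4% up and 31.8% down, so the total share of members called was close to that of all genes. The median member changed by 0.46 on the log2 scale, and the median gene by 0.04. From EpiLC to PGCLC_d3, 10 members rose, 10 fell and 3 did not pass, beside 74.9% of all tested genes changed, 47.3% up and 27.6% down, with a median of -0.08 for members and 0.21 for all genes. From PGCLC_d3 to PGCLC_d3ag3, 2 members rose, 15 fell and 6 did not pass. In that comparison 70.4% of all genes changed, 25.7% up and 44.8% down, and the medians were -0.83 for members and -0.18 for all genes. PGCLC_d3 set against ESC had 11 members higher, 6 lower and 6 not passed, beside 77% of all genes changed, 49.6% up and 27.4% down, with medians of 0.37 and 0.25. Comparisons that include the same group share its libraries and are not independent of each other.

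The share of higher calls among all changed genes depends on the scaling. When libraries were rescaled by median-of-ratios, the share called higher went from 63.2% to 49.2% for PGCLC_d3 versus EpiLC, from 36.4% to 50.0% for PGCLC_d3ag3 versus PGCLC_d3 and from 64.4% to 49.8% for PGCLC_d3 versus ESC. The change of the median gene went from 0.21 to -0.02, from -0.18 to -0.004 and from 0.25 to -0.003 in turn. Member counts under that rescaling were 9 up and 12 down, 2 up and 15 down, and 11 up and 7 down. The large changes described below exceed these shifts several times over.

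The laminin alpha chain changed at each of the first steps. Lama1, which encodes the alpha1 chain of early embryonic laminin, was at 89.6 and 123 TPM in ESC, 0.580 and 0.652 in EpiLC, 0.878 and 0.666 in PGCLC_d3, and 0.694 and 0.659 in PGCLC_d3ag3. It was high in both ESC libraries and below 1 TPM in the other 6. Between ESC and EpiLC it fell by 6.03 on the log2 scale (SE 0.16, limma adjusted p = 1.2e-09), which is 172-fold in mean TPM. No change of Lama1 passed at the later steps (adjusted p = 0.479 for PGCLC_d3 versus EpiLC and adjusted p = 0.683 for PGCLC_d3ag3 versus PGCLC_d3). In these bulk samples, fewer cells of a type and less RNA per cell cannot be told apart, and in the sorted groups neither can be separated from the choice of cells by the sort.

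Lama5, which encodes the alpha5 chain of many epithelial basement membranes, was at 10.4 and 14.2 TPM in ESC, 30.0 and 32.6 in EpiLC, 21.5 and 21.3 in PGCLC_d3, and 2.61 and 3.21 in PGCLC_d3ag3. The 4 groups did not overlap, with EpiLC highest and the aggregated cells lowest. It rose by 1.29 (SE 0.14, limma adjusted p = 2.6e-05) into EpiLC, and the later log2 changes were -0.52 (adjusted p = 0.0077) into PGCLC_d3 and -2.53 (adjusted p = 3.9e-07) after aggregation. The fall into PGCLC_d3 no longer passed without EpiLC replicate 2 (-0.47, adjusted p = 0.0601).

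Lama4, which encodes the alpha4 chain found in vascular and mesenchymal basement membranes, was at 0.119 and 0.087 TPM in ESC and 0.460 and 0.727 in EpiLC. It was at 20.0 and 19.9 in PGCLC_d3 and back to 2.32 and 1.22 in PGCLC_d3ag3. The rise into PGCLC_d3 was 3.72 on the log2 scale (SE 0.19, limma adjusted p = 7.0e-08), and the change after aggregation was -2.95 (SE 0.19, adjusted p = 7.2e-07). Of the 4 tested endothelium markers, Cdh5 and Plvap were also highest in PGCLC_d3. Pecam1 (18.3 and 17.3 TPM) and Tie1 (0.211 and 0.243 TPM) were lowest there. Cdh5 was at 1.67 and 1.71 TPM there, 0.292 and 0.283 in EpiLC and 0.364 and 0.213 in PGCLC_d3ag3. Plvap was at 4.21 and 4.32 TPM there, 1.64 and 0.945 in EpiLC and 0.851 and 0.983 in PGCLC_d3ag3. Their log2 changes were 1.06 and 1.22 into PGCLC_d3 (adjusted p = 1.5e-05 and 5.0e-05) and -1.06 and -1.46 after aggregation (adjusted p = 2.2e-05 and 2.0e-05), and the part of such cells in the Lama4 values was not tested. The smaller difference of Lama4 between EpiLC and ESC (0.53, adjusted p = 0.0292) lay between levels below 1 TPM and ended under several alternatives. Among them were quantile normalization (adjusted p = 0.094) and leaving out either ESC library (adjusted p = 0.0884 without replicate 1 and 0.11 without replicate 2) or EpiLC replicate 2 (adjusted p = 0.171). The remaining alpha chains, Lama2 of muscle and Lama3 of skin-type laminin, stayed at or below 0.265 and 0.595 TPM in all 8 libraries.

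**Figure D2:**
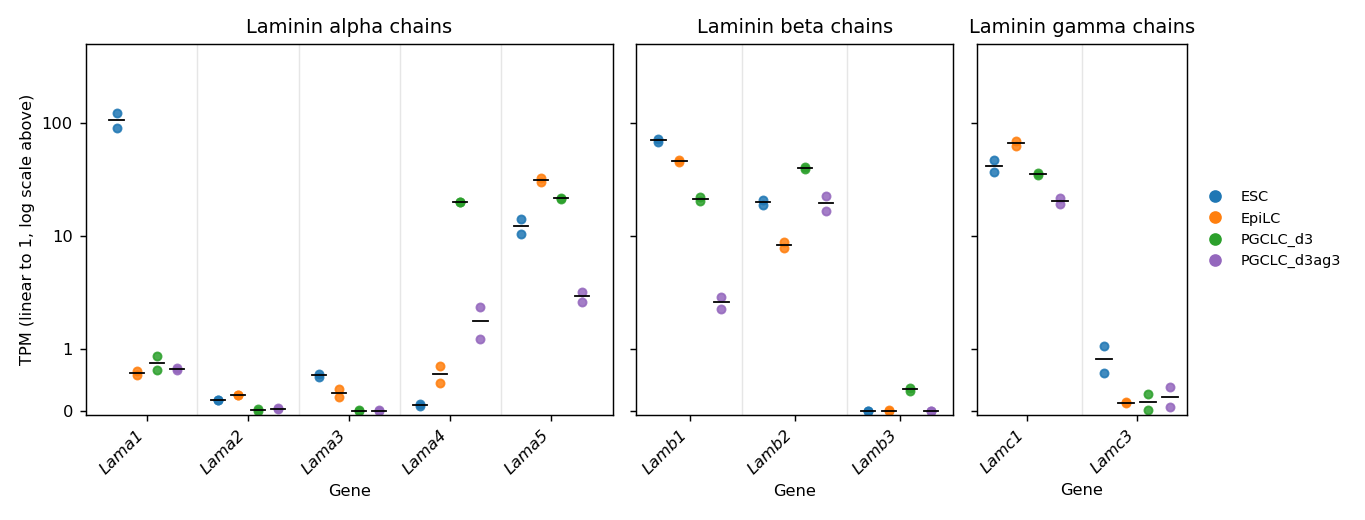
TPM of 10 laminin chain genes (vertical axis, linear up to 1 and logarithmic above) in the 2 libraries of each group (points), with the group mean as a bar. Lama1 is at 89.6 and 123 TPM in ESC and below 1 elsewhere, Lama4 is at about 20 TPM in PGCLC_d3 alone, and Lamc1 is above 19 TPM in every library.

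As a share of the summed TPM of the 5 alpha chain genes, Lama1 made up 88.8% and 89.1% in the ESC libraries. Lama5 made up 95.2% and 94.2% in EpiLC. In PGCLC_d3 the sum was divided between Lama5, at 50.8% and 50.9%, and Lama4, at 47.2% and 47.4%. In PGCLC_d3ag3 Lama5 held 46.1% and 62.2%, Lama4 40.9% and 23.6% and Lama1 12.2% and 12.8%, but of a sum of only 5.66 and 5.16 TPM, against 101 and 138 in ESC, 31.5 and 34.6 in EpiLC and 42.5 and 41.9 in PGCLC_d3. The shares are of messenger RNA levels and do not measure assembled trimers.

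**Figure D3:**
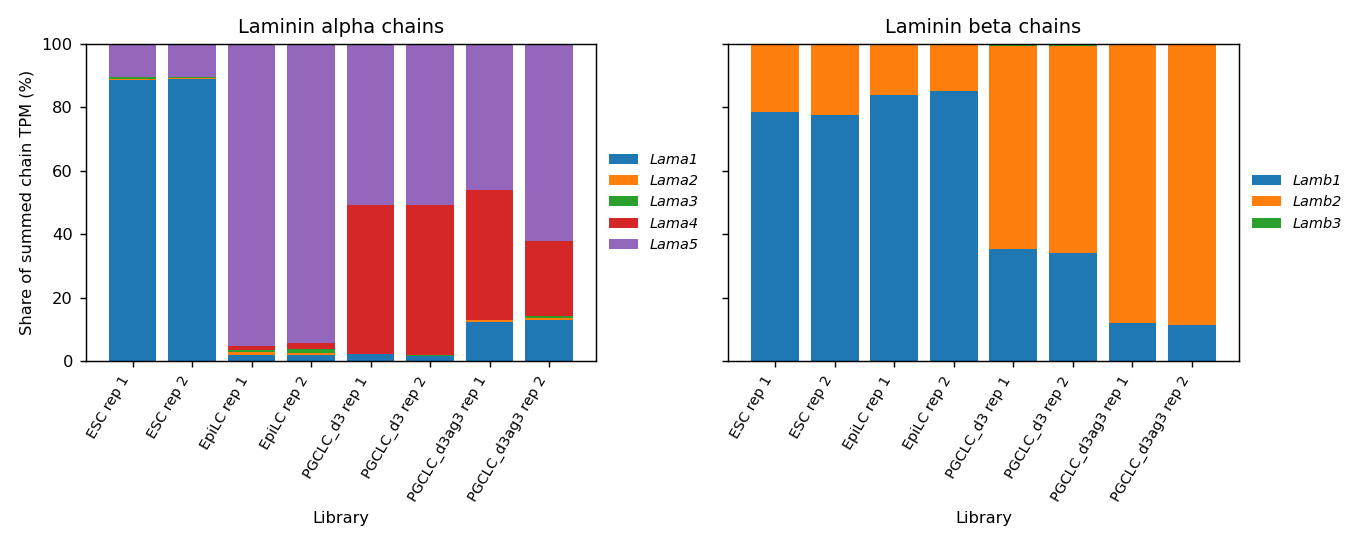
Share (%) of each gene in the summed TPM of the laminin alpha chains (left) and beta chains (right), as 1 stacked bar per library. Lama1 fills most of both ESC bars and Lama5 most of both EpiLC bars, and Lamb2 takes over from Lamb1 in the 4 germ cell-like libraries.

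The beta chains parted at PGCLC_d3, where Lamb1 fell and Lamb2 rose. Lamb1, the partner of alpha1 and alpha5 in embryonic laminins, was at 68.2 and 72.2 TPM in ESC, 46.5 and 45.3 in EpiLC, 22.3 and 20.4 in PGCLC_d3, and 2.26 and 2.88 in PGCLC_d3ag3. It fell at every step, by 0.60, 1.07 and 2.65 on the log2 scale (limma adjusted p = 5.3e-04, 6.9e-06 and 4.6e-08). Lamb2, the beta2 chain of neuromuscular, glomerular and vascular basement membranes, was at 18.8 and 20.8 TPM in ESC, 8.83 and 7.81 in EpiLC, 40.4 and 39.1 in PGCLC_d3, and 16.5 and 22.4 in PGCLC_d3ag3. Its log2 changes were -1.16 (adjusted p = 3.8e-05), 2.13 (adjusted p = 3.7e-07) and -1.01 (adjusted p = 1.0e-04). The Lamb1 share of summed beta chain TPM was 78.4% and 77.7% in ESC and 84.1% and 85.3% in EpiLC. In PGCLC_d3 it was 35.3% and 34.1%, and in PGCLC_d3ag3 12.0% and 11.4%. Lamb3, the beta chain of skin-type laminin, was highest in PGCLC_d3, at 0.330 and 0.380 TPM.

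Lamc1, the gamma1 chain shared by most laminin trimers, varied least among the expressed chains. It was at 36.5 and 46.7 TPM in ESC, 62.6 and 68.8 in EpiLC, 34.7 and 35.8 in PGCLC_d3, and 19.1 and 21.5 in PGCLC_d3ag3. The log2 changes were 0.66 (limma adjusted p = 5.8e-04) into EpiLC, -0.88 (adjusted p = 6.2e-05) into PGCLC_d3 and -0.77 (adjusted p = 1.9e-04) after aggregation. PGCLC_d3 and ESC did not differ past the threshold (-0.22, SE 0.11, adjusted p = 0.0997), but the difference passed after median-of-ratios rescaling (-0.53, adjusted p = 9.1e-04) and quantile normalization (-0.46, adjusted p = 0.0021), and without ESC replicate 1 (-0.40, adjusted p = 0.0091). Over the 8 libraries the 3 genes outside the family with the profile most like that of Lamc1, among 8888 candidates, were Nfx1 (Pearson r = 0.997), Ptprf (0.995), a receptor phosphatase gene, and Pgm1 (0.995), as a description. Lamc3, another gamma chain gene, was not tested and was highest in ESC.

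Among the basement membrane collagens, Col18a1 had the highest level of all 55 members. It encodes the type XVIII collagen of basement membranes, whose cleaved end is endostatin. It was at 4.42 and 5.32 TPM in ESC, 319 and 332 in EpiLC, 303 and 312 in PGCLC_d3, and 84.9 and 93.2 in PGCLC_d3ag3. The rise into EpiLC was 5.80 on the log2 scale (SE 0.08, limma adjusted p = 6.9e-11), or 66.9-fold in mean TPM. EpiLC and PGCLC_d3 did not differ past the threshold (-0.08, SE 0.08, adjusted p = 0.377), although PGCLC_d3 was lower after median-of-ratios rescaling (-0.35, adjusted p = 0.0014). After aggregation it fell by 1.78 (SE 0.08, adjusted p = 1.2e-07).

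Col4a1 and Col4a2 encode the chains of the most widespread form of type IV collagen. Col4a1 was at 0.236 and 0.200 TPM in ESC, 26.9 and 29.8 in EpiLC, 27.7 and 23.6 in PGCLC_d3, and 0.671 and 0.413 in PGCLC_d3ag3. Col4a2 was at 0.209 and 0.377 TPM in ESC, 5.86 and 7.67 in EpiLC, 19.0 and 15.8 in PGCLC_d3, and 0.325 and 0.561 in PGCLC_d3ag3. Both were below 1 TPM in all ESC and aggregated libraries and above 5 TPM in the 4 libraries between. Into EpiLC, Col4a1 rose by 4.59 (SE 0.14, limma adjusted p = 3.0e-09) and Col4a2 by 2.58 (SE 0.17, adjusted p = 5.0e-07). Into PGCLC_d3, Col4a2 rose again, by 1.25 (SE 0.17, adjusted p = 7.1e-05), while the change of Col4a1 did not pass as deposited (-0.14, SE 0.14, adjusted p = 0.377) and was a fall after median-of-ratios rescaling (-0.40, adjusted p = 0.0253) and quantile normalization (-0.46, adjusted p = 0.013). Aggregation was followed by log2 changes of -4.11 (SE 0.14, adjusted p = 2.1e-08) for Col4a1 and -3.67 (SE 0.17, adjusted p = 1.1e-07) for Col4a2.

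The ratio of Col4a1 to Col4a2 in TPM was 4.59 and 3.89 in EpiLC and 1.46 and 1.49 in PGCLC_d3, with no overlap between the groups. The ratio itself was not tested. Over the 8 libraries the log2 levels of the pair correlated at Pearson r = 0.953, given as a description of points that fall in 4 groups. The genes lie head to head on rat chromosome 16, Col4a1 on the plus strand and Col4a2 on the minus strand. The RefSeq promoter table (build GRCr8) places 76 bases between their start sites. The bases between both starts are shown because this pair rose from ESC to EpiLC and fell after aggregation together. They span chr16:84885521-84885596 and are written on the plus strand, 5′ to 3′ towards Col4a1, with the match to a GC box in capitals.
Col4a1-Col4a2: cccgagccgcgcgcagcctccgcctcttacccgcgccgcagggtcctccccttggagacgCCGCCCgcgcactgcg
The stretch is 78.9% G or C. Of the motifs searched on both strands, the GC box GGGCGG matched once, on the minus strand at position 61 of the stretch, and neither CCAAT nor TATAAA matched. The motifs do not overlap each other. In the 76 bases before the start in all 33469 promoter windows of the table, 18.1% held GGGCGG, 13.0% CCAAT and 4.61% TATAAA on either strand. A match is only a match of letters, and no binding was measured here. The other type IV pairs are also head to head, with 412 bases between the starts of Col4a3 and Col4a4 and 1414 between those of Col4a5 and Col4a6. These 4 genes, which encode chains of specialised basement membranes such as that of the kidney glomerulus, were too low to be tested, with maxima of 1.75, 0.481, 0.664 and 0.037 TPM. Col4a3 was highest in PGCLC_d3ag3, at 1.75 and 0.788 TPM.

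**Figure D4:**
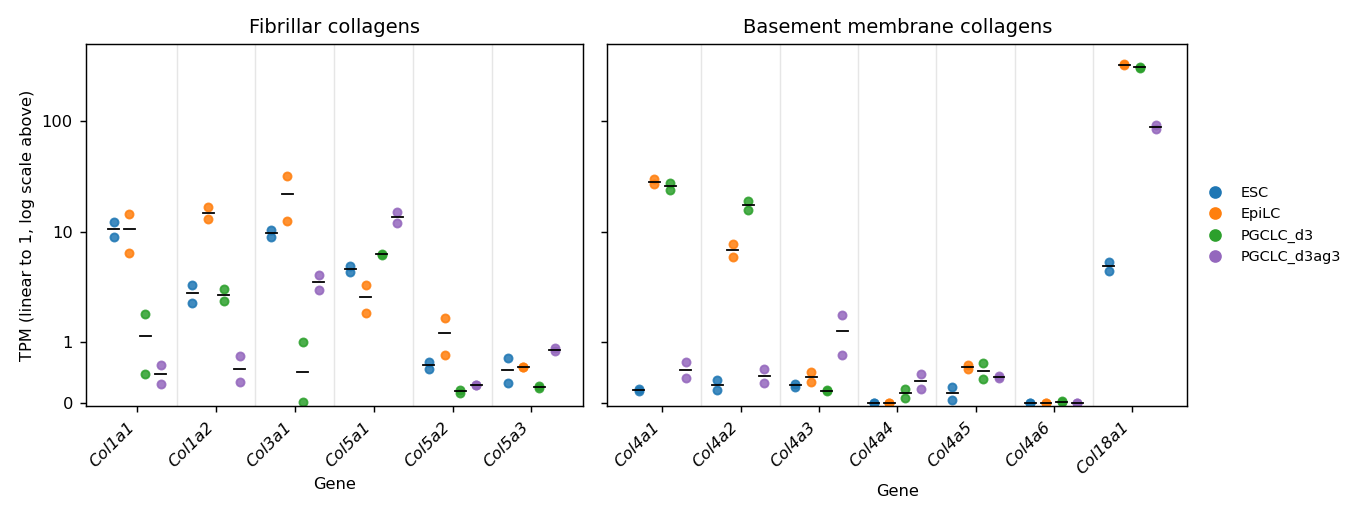
TPM of fibrillar collagen genes (left) and of type IV and type XVIII collagen genes (right) in the 2 libraries of each group (points), with the group mean as a bar, on an axis that is linear up to 1 and logarithmic above. Col4a1, Col4a2 and Col18a1 are high in EpiLC and PGCLC_d3, whereas Col1a1, Col1a2 and Col3a1 are low in PGCLC_d3 and Col5a1 is highest in PGCLC_d3ag3.

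The 10 tested basement membrane genes all changed between ESC and EpiLC, 7 up and 3 down (Lama1, Lamb1 and Lamb2), beside 67.3% of all tested genes. Into PGCLC_d3, 4 rose (Col4a2, Lama4 and Lamb2 among them), 3 fell and 3 did not pass, a share close to the 74.9% of all genes. After aggregation, where 70.4% of all genes changed and 44.8% fell, 9 fell and only Lama1, already below 1 TPM, did not pass, with a median log2 change of -2.15 over the 10 genes and -0.18 over all tested genes. PGCLC_d3 versus ESC had 7 higher, 2 lower and 1 not passed, beside 77% of all genes changed. The untested members Col7a1, of the anchoring fibrils of skin, and Col15a1, a relative of Col18a1, reached 1.06 and 0.923 TPM at most.

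Of the 4 tested fibrillar genes, 2 rose, 1 fell and 1 did not pass from ESC to EpiLC, where 67.3% of all tested genes changed. All 3 type I and type III genes fell into PGCLC_d3, while Col5a1 rose, beside 74.9% of all genes changed. After aggregation Col3a1 and Col5a1 rose, Col1a2 fell and Col1a1 did not pass, beside 70.4%. PGCLC_d3 versus ESC had 2 lower (Col1a1 and Col3a1) and 2 not passed, beside 77%.

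The EpiLC replicates stood apart in these genes. In replicate 2, Col3a1 was 2.52 times, Col1a1 2.25 times, Col5a2 2.06 times and Col5a1 1.80 times its level in replicate 1, and Col1a2 1.27 times. The 3 beaded filament genes Col6a1, Col6a2 and Col6a3 were 1.70 to 2.24 times higher there. Over 12004 genes with at least 1 TPM in either library, the median ratio was 1.00, and 1.92% of genes had a ratio of at least 1.5. Of 8 basement membrane genes with at least 1 TPM, 1 reached that ratio.

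Col3a1, the type III chain of soft connective tissue, was at 10.4 and 8.92 TPM in ESC, 12.5 and 31.6 in EpiLC, 0.019 and 0.992 in PGCLC_d3, and 2.94 and 4.08 in PGCLC_d3ag3. The difference between EpiLC and ESC (0.98, SE 0.39, limma adjusted p = 0.0496) just passed and was 0.35 (adjusted p = 0.439) without EpiLC replicate 2. It also failed without either ESC library (adjusted p = 0.12 and 0.193), without either PGCLC_d3ag3 library (adjusted p = 0.0675 and 0.0677), with a pseudocount of 0.1 TPM (adjusted p = 0.304), with no filter (adjusted p = 0.118), after median-of-ratios rescaling (adjusted p = 0.0537) and without a trend in the variance (adjusted p = 0.0867). The log2 change into PGCLC_d3 was -3.88 (SE 0.39, adjusted p = 1.1e-05), and the rise after aggregation was 1.65 (SE 0.39, adjusted p = 0.0040). The genes outside the family with the profile most like that of Col3a1 over the 8 libraries were Hnrnpm (Pearson r = 0.987), U2surp (0.976) and Ptma (0.970). Hnrnpm, an RNA-binding protein gene, ranged from 357 to 619 TPM, a far narrower range on the log2 scale than that of Col3a1.

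Col1a1 and Col1a2 encode the 2 chains of type I collagen. Col1a1 was at 12.2 and 8.85 TPM in ESC, 6.43 and 14.5 in EpiLC, 0.484 and 1.80 in PGCLC_d3, and 0.312 and 0.631 in PGCLC_d3ag3. ESC and EpiLC overlapped (-0.09, SE 0.36, limma adjusted p = 0.846), and the log2 change into PGCLC_d3 was -2.39 (SE 0.36, adjusted p = 1.8e-04). Col1a2 was at 3.27 and 2.27 TPM in ESC, 13.1 and 16.6 in EpiLC, 2.36 and 3.01 in PGCLC_d3, and 0.346 and 0.779 in PGCLC_d3ag3. It rose by 2.07 (SE 0.20, adjusted p = 8.2e-06) from ESC to EpiLC, and then changed by -2.10 (adjusted p = 5.8e-06) and -1.25 (adjusted p = 3.0e-04). In both ESC libraries Col1a1 thus lay above Col1a2, and in every EpiLC, PGCLC_d3 and PGCLC_d3ag3 library below it.

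Col5a1, the type V chain that starts fibrils, had an order unlike that of the type I and III genes. It was at 4.89 and 4.27 TPM in ESC, 1.83 and 3.30 in EpiLC, 6.24 and 6.18 in PGCLC_d3, and 12.0 and 15.2 in PGCLC_d3ag3, without overlap between groups. It rose by 1.05 (SE 0.19, limma adjusted p = 7.5e-04) into PGCLC_d3 and by 1.01 (SE 0.19, adjusted p = 0.0011) after aggregation. The fall from ESC to EpiLC (-0.68, adjusted p = 0.0115) ended without EpiLC replicate 1 (-0.38, adjusted p = 0.104) or ESC replicate 1 (-0.59, adjusted p = 0.0758). PGCLC_d3 versus ESC did not pass (0.37, SE 0.19, adjusted p = 0.108), but passed as higher without EpiLC replicate 1 (adjusted p = 0.0459) or EpiLC replicate 2 (adjusted p = 0.0471). Its partner genes were too low to be tested. Col5a2 was at 0.678 and 0.565 TPM in ESC, 0.794 and 1.63 in EpiLC, 0.171 and 0.215 in PGCLC_d3, and 0.304 and 0.293 in PGCLC_d3ag3. Col5a3 was at 0.738 and 0.333 TPM in ESC, 0.589 and 0.586 in EpiLC, 0.254 and 0.277 in PGCLC_d3, and 0.905 and 0.849 in PGCLC_d3ag3.

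Summed over the 6 fibrillar genes, the level was 32.2 and 25.2 TPM in ESC, 35.3 and 68.2 in EpiLC, 9.52 and 12.5 in PGCLC_d3, and 16.8 and 21.8 in PGCLC_d3ag3. Col5a1 alone gave 6.24 and 6.18 TPM of that sum in PGCLC_d3 and 12.0 and 15.2 in PGCLC_d3ag3. The 20 basement membrane genes summed to 232 and 285 TPM in ESC, 503 and 529 in EpiLC, 495 and 493 in PGCLC_d3, and 133 and 150 in PGCLC_d3ag3. The basement membrane sum was thus above the fibrillar sum in every library, 7.22 and 11.3 times in ESC, 14.3 and 7.76 times in EpiLC, 52.0 and 39.6 times in PGCLC_d3 and 7.92 and 6.86 times in PGCLC_d3ag3. Col18a1 alone held 1.91% and 1.86% of the basement membrane sum in ESC and 61.1% to 63.7% in the other 6 libraries. Without it, that sum was 228 and 280 TPM in ESC, 184 and 197 in EpiLC, 192 and 181 in PGCLC_d3, and 48.4 and 56.3 in PGCLC_d3ag3.

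Markers of fibroblasts and stroma other than collagens were set beside the fibrillar genes. The defining markers Dcn, Lum, Postn and Pdgfrb summed to 3.40 and 3.87 TPM in ESC, 11.7 and 19.8 in EpiLC, 0.724 and 1.07 in PGCLC_d3, and 8.44 and 9.62 in PGCLC_d3ag3. Their sum was thus lowest in PGCLC_d3 and higher in EpiLC replicate 2 than in replicate 1, as for the fibrillar sum. Unlike the fibrillar sum, it was lower in ESC than in PGCLC_d3ag3. The single markers did not all share the order of their sum: into EpiLC Dcn and Lum rose, and Postn and Pdgfrb fell. Pdgfrb was highest in ESC, at 2.15 and 2.58 TPM, and at or below 0.759 TPM elsewhere. Dcn, a proteoglycan gene that coats collagen fibrils, was at 0.261 and 0.287 TPM in ESC, 9.61 and 15.7 in EpiLC, 0 and 0 in PGCLC_d3, and 1.75 and 0.962 in PGCLC_d3ag3. Lum was also listed at 0 in both PGCLC_d3 libraries and in both PGCLC_d3ag3 libraries. Postn was the largest of the 4 in PGCLC_d3ag3, at 6.70 and 8.45 TPM, against 0.134 and 0.309 in PGCLC_d3. Of the whole list of 16 markers, 11 were tested, and 6 rose and 4 fell into EpiLC, 2 rose and 4 fell into PGCLC_d3, and 2 rose and 5 fell after aggregation. Those called were 90.9%, 54.5% and 63.6% of the tested markers, beside 67.3%, 74.9% and 70.4% of all tested genes. The list summed to 12.1 and 13.8 TPM in ESC, 34.9 and 48.5 in EpiLC, 42.0 and 34.5 in PGCLC_d3, and 15 and 16 in PGCLC_d3ag3. In PGCLC_d3 the actin-binding genes Tagln (24.2 and 16.5 TPM) and Cnn1 (11.6 and 11 TPM) made up most of that sum. The part of stromal RNA, and of reads from the mouse feeder cells of the ESC, in the fibrillar values was not tested.

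**Figure D5:**
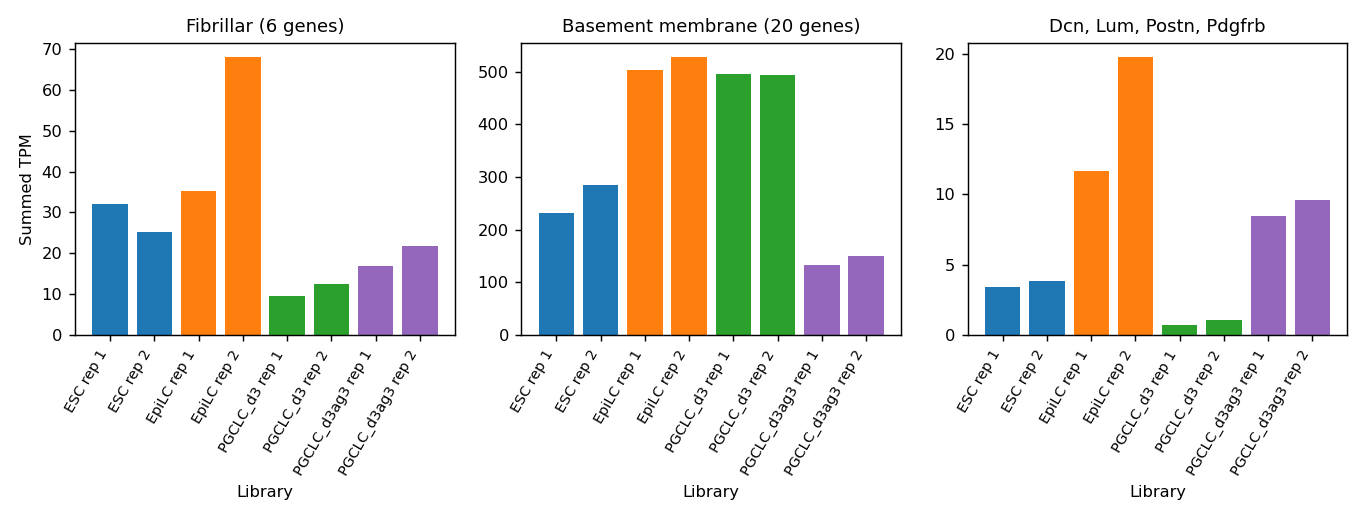
Summed TPM per library (bars) of the 6 fibrillar genes, the 20 basement membrane genes and the stromal markers Dcn, Lum, Postn and Pdgfrb, each on its own linear axis from 0. Fibrillar and stromal sums are lowest in PGCLC_d3 and highest in EpiLC replicate 2, whereas basement membrane sums are near 500 TPM in EpiLC and PGCLC_d3. From ESC to PGCLC_d3ag3 the fibrillar sum is lower and the stromal sum higher.

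Markers of the other cells that could be present were measured too. The defining gonadal somatic markers Wt1, Nr5a1, Foxl2 and Amhr2 summed to 0.524 and 0.621 TPM in PGCLC_d3 and 6.18 and 6.63 in PGCLC_d3ag3, but also to 17.4 and 16.4 in EpiLC, to which no gonadal cells had been added, and to 3.65 and 4.54 in ESC. Amhr2 gave 3.74 and 4.26 TPM of the PGCLC_d3ag3 sum and 3.55 and 4.42 of the ESC sum. Of the 12 gonadal somatic markers 6 were tested, and 4 rose and 1 fell after aggregation. The 12 markers summed to 35.0 and 27.4 TPM before aggregation and 17.4 and 25.7 after. Irx3 gave 27.1 and 21.1 TPM of that sum before aggregation and 5.92 and 8.90 after. At that step 25.7% of all tested genes rose and 44.8% fell. The defining markers of primitive and parietal endoderm, a tissue that lays down laminin and type IV collagen, summed to 1.25 and 1.40 TPM in ESC and 1.1 and 0.9 in EpiLC. In PGCLC_d3 they summed to 63.3 and 49.7, of which Sox17 gave 57.5 and 45, and in PGCLC_d3ag3 to 15.4 and 18.7. The 12 endoderm markers, 7 of them tested, summed to 71.0 and 57.4 TPM in PGCLC_d3. Of the 7, 6 rose there from EpiLC, beside 47.3% of all tested genes. The 8 endothelium markers summed to 158 and 158 TPM in ESC, 54.4 and 50.1 in EpiLC, 25.3 and 24.7 in PGCLC_d3 and 137 and 140 in PGCLC_d3ag3. Pecam1 gave most of each sum, and Tie1 gave 55.5 and 53.2 TPM of it in ESC and at most 1.25 elsewhere. Of the 4 tested endothelium markers, 2 rose and 2 fell at each of the steps into EpiLC and PGCLC_d3, and 1 rose (Pecam1) and 2 fell (Cdh5 and Plvap) after aggregation. At these steps in turn, 67.3%, 74.9% and 70.4% of all tested genes changed. Kdr, which was not tested, was at 0.833 and 0.981 TPM in PGCLC_d3 and at or below 0.308 elsewhere. Whether these markers came from such cells or from the named cells of each group was not tested. The part of such cells in the collagen and laminin values was not tested either.

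The other tested collagens were low. Col26a1, a little-studied collagen, was at 10.6 and 9.53 TPM in ESC, 1.65 and 0.944 in EpiLC, 1.76 and 2.48 in PGCLC_d3, and 0.759 and 0.759 in PGCLC_d3ag3. It fell by 2.28 (SE 0.18, limma adjusted p = 1.8e-06) from ESC to EpiLC and changed by -0.82 (adjusted p = 0.0021) after aggregation. Its difference between PGCLC_d3 and EpiLC (0.45, adjusted p = 0.0408) was lost under 11 of 15 alternatives, with adjusted p up to 0.341. The beaded filament genes Col6a1, Col6a2 and Col6a3, whose products join to a microfibril of connective tissue, rose into EpiLC by 0.90, 1.73 and 1.29 on the log2 scale and changed by -1.12, -1.75 and -1.5 into PGCLC_d3. Their mean levels in EpiLC were 1.57, 4.27 and 2.13 TPM, and without exception they were at or below 0.732 TPM in the other 6 libraries. Col13a1 and Col25a1, both transmembrane collagens, and Col2a1 and Col9a3 of cartilage rose into PGCLC_d3, by 1.07, 1.5, 1.20 and 0.93, to mean levels of 1.22, 2.31, 2.73 and 1.82 TPM. Col9a2 changed by -0.80 there.

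Genes whose products process, bind or degrade these proteins were described from general lists. Of 22 tested collagen-making genes, 10 rose and 9 fell into EpiLC, 12 rose and 7 fell into PGCLC_d3, and 4 rose and 9 fell after aggregation, with list medians of 0.09, 0.30 and -0.08 beside 0.04, 0.21 and -0.18 for all genes. Those called were 86.4%, 86.4% and 59.1% of the genes tested from the list, beside 67.3%, 74.9% and 70.4% of all tested genes. Serpinh1, which encodes the collagen chaperone HSP47, was at 4.47 and 4.33 TPM in ESC, 325 and 280 in EpiLC, 329 and 372 in PGCLC_d3, and 314 and 160 in PGCLC_d3ag3. It rose by 5.81 into EpiLC (limma adjusted p = 2.0e-08). Pxdn, the peroxidase that crosslinks type IV collagen, was at 0.327 and 0.306 TPM in ESC, 41.2 and 47.1 in EpiLC, 30.5 and 28.8 in PGCLC_d3, and 2.50 and 2.62 in PGCLC_d3ag3. Its high groups were thus those in which Col4a1 was also high. Other large changes in the list were those of Adamts14, a procollagen peptidase (3.09 into PGCLC_d3), and of Plod1, a lysyl hydroxylase (2.29 into PGCLC_d3). P4ha1, a prolyl hydroxylase, rose by 1.43 after aggregation.

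Of 11 tested basement membrane partners, 3 rose and 5 fell into EpiLC, 3 rose and 6 fell into PGCLC_d3, and 8 fell after aggregation, with medians of -0.12, -0.48 and -0.95. Those called were 72.7%, 81.8% and 72.7% of the tested partners, beside 67.3%, 74.9% and 70.4% of all tested genes. The medians of all genes were 0.04, 0.21 and -0.18. Of the partners, up to 2 rose after aggregation under 5 of the 15 alternatives. Nid1, which encodes the nidogen that links laminin to type IV collagen, was at 319 and 391 TPM in ESC, 63.4 and 57.2 in EpiLC, 1.65 and 1.48 in PGCLC_d3, and 2.95 and 1.80 in PGCLC_d3ag3. Its log2 changes were -2.53 into EpiLC (limma adjusted p = 4.6e-07) and -4.58 into PGCLC_d3 (adjusted p = 7.1e-09). PGCLC_d3 and PGCLC_d3ag3 did not differ past the threshold (0.38, adjusted p = 0.0588), but the difference passed with a pseudocount of 0.1 TPM (adjusted p = 0.0412), with median-of-ratios (adjusted p = 0.0163) and quantile scaling (adjusted p = 0.0073), and without PGCLC_d3ag3 replicate 2 (adjusted p = 0.0036). Nid1 and Col4a1 were thus both low in PGCLC_d3ag3, whereas in PGCLC_d3 only Col4a1 was high. Nid2, a relative of Nid1, was at 36.8 and 40.7 TPM in ESC and 42.3 and 33.1 in EpiLC. In PGCLC_d3 it was at 20.2 and 15.2 TPM, and in PGCLC_d3ag3 at 9.52 and 10.4. The perlecan gene Hspg2 had means of 5.91, 5.31, 2.37 and 1.31 TPM over the 4 groups in order, and Sparc, a collagen-binding protein gene, had 23.9, 50.6, 26.0 and 11.5 TPM. Tinagl1, which encodes a secreted matrix protein, rose by 3.01 into PGCLC_d3, from 3.03 to 30.1 TPM, and was at 3.36 TPM after aggregation.

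Of 14 tested matrix receptors, 9 rose and 3 fell into EpiLC, 6 rose and 5 fell into PGCLC_d3, and 2 rose and 9 fell after aggregation, with medians of 0.86, 0.27 and -0.76. Those called were 85.7%, 78.6% and 78.6% of the tested receptors, beside 67.3%, 74.9% and 70.4% of all tested genes. The medians of all genes were 0.04, 0.21 and -0.18. Among laminin-binding integrin chains, Itga7 had means of 49.7 TPM in ESC and 3.49 in EpiLC. Itga6 had means of 9.57 TPM in ESC, 31.8 in EpiLC and 3.39 in PGCLC_d3. Itga3, unlike Itga6, stayed high in PGCLC_d3, at 12.1 and 13.5 TPM per library, against 12.8 and 8.20 in EpiLC. It was at 0.475 and 0.365 TPM in ESC and at 1.58 and 1.66 in PGCLC_d3ag3. Dag1, which encodes dystroglycan, had means of 92.0, 138, 104 and 62.8 TPM in order, and the integrin gene Itgb1 had 156, 196, 235 and 134. The collagen receptor kinase gene Ddr1 rose by 1.57 into PGCLC_d3, to 91.1 TPM. Of 16 tested matrix breakdown genes, 8 rose and 4 fell into EpiLC, 7 rose and 8 fell into PGCLC_d3, and 1 rose and 9 fell after aggregation, with medians of 0.52, -0.01 and -0.70. Those called were 75%, 93.8% and 62.5% of the tested breakdown genes, beside the same shares and medians of all genes. Mmp9, a gelatinase that also cuts type IV collagen, rose by 3.12 into PGCLC_d3, to 9.30 TPM, and changed by -2.51 after aggregation. The inhibitor gene Timp3 went from 29.6 TPM in EpiLC to 3.04 in PGCLC_d3.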

How the data were processed

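RNA was sequenced from 8 libraries, 2 in each of 4 groups, and each sample title gave its group and replicate number. The labels' protocols name the PicoPure kit for RNA and, per the labels, SMART-Seq v4 with KAPA Hyper Prep for the libraries. The tools, per the submitters' processing notes, were bcl2fastq 2.20, cutadapt 1.1.6, HISAT2 2.1.0 and featureCounts of Subread 1.6.5, with the genome build rn7. The authors deposited log2(TPM+1) per gene and sample. Mouse feeder reads could map to the rat genome, and their removal is not given in the sources used here. The 11066 rows without a symbol were left out. TPM was recovered as 2 to the deposited value, minus the pseudocount of 1.

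The 13571 genes that reached 1 TPM in 2 or more libraries entered 1 limma fit (version 3.58.1, R 4.3.3, functions lmFit and eBayes with a trend, 2-sided), which covered all 4 groups and left 4 residual degrees of freedom. The threshold was a Benjamini-Hochberg adjusted p under 0.05 over all tested genes. The fit was tested on simulated data. Collagens and laminins with a mean of at least 5 TPM in a group, and the type I, III and V genes, are given per library. From the other lists, up to 3 called rises and 3 called falls per comparison, and Serpinh1, Sparc, Nid1, Nid2, Hspg2, Dag1 and Itgb1, may be named, and further markers, including those of the label check, were named after their values were seen. Likeness candidates had a mean of at least 10 TPM in a group. The members and lists were chosen with earlier results of these data known. Crtap and Pcolce2 were not analysed here, and the values of 1 member are not reported here, although it is in the counts and sums. Promoter sequences are from RefSeq, build GRCr8, where 44 of 55 members matched, and only those of type IV collagens were used. That build differs from rn7, so no position of the expression table is given. Alternatives were another pseudocount (0.1 TPM), another minimum (5 TPM) or none, median-of-ratios and quantile scaling, no variance trend, a replicate block, and each library left out.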

Additional observations from a re-analysis of the deposited data

How the results depend on the processing

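The member counts, the counts of the other lists and the log2 changes given above were recomputed under 15 alternatives, as far as each gene was tested there, and the summed levels under the rescalings and with libraries left out. Medians of members and lists, percentages of a list called, shares of a sum and ratios were not. The median change of all tested genes and the share of higher calls among changed genes were recomputed under the rescalings and the replicate block. Recomputing the other collagens and the list genes was added after seeing the data. Of the single-gene values, 1190 kept their direction and side of the threshold, 32 no longer passed, 13 newly passed and 8 changed sign. Of 720 counts of the other lists, 674 stayed within 1.5 times the count given and 46 did not, 16 of them with a minimum of 5 TPM and 17 with a library left out. The collagen-making genes lower in PGCLC_d3 than in EpiLC were 4, not 7, without EpiLC replicate 2 or PGCLC_d3 replicate 1. The endothelium markers higher in EpiLC than in ESC were 1, not 2, without any 1 of those 4 libraries. After aggregation, receptors higher were 1, not 2, without PGCLC_d3 replicate 1 or 2 or PGCLC_d3ag3 replicate 1, and without PGCLC_d3ag3 replicate 2 the gonadal markers lower were 2, not 1. The cause was not tested, apart from settings that fit fewer or more genes or fewer samples by construction. With a minimum of 5 TPM, members higher were 8 for EpiLC versus ESC, 5 for PGCLC_d3 versus EpiLC and 6 for PGCLC_d3 versus ESC, and members lower were 6 for PGCLC_d3 versus EpiLC. With no filter, 9 members were lower for EpiLC versus ESC and 17 for PGCLC_d3 versus EpiLC, 7 were higher and 23 lower for PGCLC_d3ag3 versus PGCLC_d3, and 21 were higher and 11 lower for PGCLC_d3 versus ESC. Basement membrane genes changed were then 11 for PGCLC_d3 versus EpiLC and 16 for PGCLC_d3 versus ESC. Median-of-ratios rescaling gave basement membrane sums of 538 TPM in EpiLC and 427 in PGCLC_d3 (516 and 494 as deposited), and quantile normalization gave 473 TPM, with a fibrillar sum of 8.63 TPM, in PGCLC_d3. The fibrillar genes changed from ESC to EpiLC were 1 to 3 with each library left out, and 1 without ESC replicate 1; the lone library of that group is then assumed to vary like the other groups. Sign changes touched only values that did not pass the test. Lama1 after aggregation was 0.0118 with median-of-ratios and 0.0668 with quantile scaling, and -0.164 to 0.009 with a PGCLC_d3 library left out. Col5a1 for PGCLC_d3 versus ESC was -0.0532 with quantile scaling. Col1a1 for EpiLC versus ESC was -0.62 to 0.44 with a library left out, and Col1a2 for PGCLC_d3 versus ESC was -0.22 to 0.17. Deviations of the replicates from their group means were nearly uncorrelated between groups (correlations of -0.037 to 0.066). That cannot show whether samples with the same replicate number were prepared as pairs. With a replicate block, members called were 18, 19, 17 and 18 in the 4 comparisons, against 18, 20, 17 and 17: Col26a1 for PGCLC_d3 versus EpiLC no longer passed (adjusted p = 0.0522) and Lamc1 for PGCLC_d3 versus ESC did (adjusted p = 0.0381). Without read totals, whether a value listed at 0 is absence or low depth cannot be told.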
